A study of Mus musculus with 10 samples.

Results

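The genes described here are the 226 mouse genes whose symbol is Zfp followed by a number, with an optional final letter or l and a digit. They were found by symbol among 13840 genes named by a single-symbol probe on the array, and 236 probes carried such a symbol. Where a gene had several probes, the one with the highest mean log2 value over the 10 arrays of the deposited table stood for it. The choice used no difference between tissues. The series compared array platforms with 2 pooled RNAs: retina from adult C57/B6 mice (a pool of 350 mice, 5 arrays) and cortex on postnatal day 1 (19 mice pooled, 5 arrays). The labels conflict on the strain of the cortex mice, which is C57/B6 in the descriptions of the samples and Swiss-Webster in the text on the series. The retina is adult by the descriptions, but the titles of its arrays contain P1, which the labels do not explain. No animal in either pool carries a stated genetic change or treatment. Tissue, age and possibly strain therefore cannot be told apart. The 5 arrays of a tissue are repeats of 1 pool, so every p-value below measures the spread between arrays and not between animals. In whole tissue, fewer cells of a type and less RNA per cell cannot be told apart either.

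Zfp is the mouse prefix for zinc finger protein, a name given by structure and not by function. Most members encode C2H2 proteins, in which cysteine and histidine pairs hold a zinc ion and a row of such fingers reads DNA. Many carry a KRAB domain, which recruits the corepressor Trim28 and, through it, a histone methyltransferase and heterochromatin proteins, and KRAB genes often lie side by side in clusters of similar copies. A few members differ: the Zfp36 group uses CCCH fingers to bind AU-rich messenger RNA and bring in the deadenylation machinery. In the nervous system, several named members act in neuronal or glial differentiation.

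Both tissues carried the markers of their labels. The rod markers were higher in retina in 6 of 6 measured genes, with a median difference of 10.23 log2 units, and the cortical projection neuron markers were lower in 5 of 5, with a median of -4.92. Markers of other cells also moved with tissue. Of 6 retinal pigment epithelium markers 4 were higher in retina, and on the cortex side all 6 were below the dim level defined next. Averaged over all 6, higher or not, the log2 signal spanned 12.30 to 12.69 across the retina arrays and 7.84 to 8.48 across the cortex arrays. Of 6 lens markers 3 were higher. All 6 lens markers together averaged 11.53 to 12.23 and 8.31 to 8.86 on the same arrays, and each was below the dim level in cortex. All 5 fibroblast and meninges markers (10.35 to 10.74 in retina, 13.97 to 14.11 in cortex), all 4 immature neuron markers (12.56 to 12.98 and 17.54 to 17.68) and all 3 measured cycling cell markers (7.53 to 8.72 and 12.86 to 12.92) were lower in retina, the cycling cell markers all below that level there. The part of these cells in the differences below was not tested. Before normalization the median intensity was 836 to 987 on the retina arrays and 1255 to 1341 on the cortex arrays. The median over the Zfp genes was then 11.94 to 12.34 log2 units on the retina arrays and 12.56 to 12.69 on the cortex arrays, which did not overlap. After normalization, which gives all arrays 1 distribution, it was 12.30 to 12.45 and 12.37 to 12.46, which did.

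With no detection flag in use, 747 probes named for a single olfactory receptor gene, which neither tissue is known for, served as a yardstick of dim signal. The level that 95% of them did not exceed was 10.77 log2 units for the retina means and 10.65 for the cortex means, and it is called the dim level below. Of the 226 Zfp genes, 163 (72.1%) lay above this level in both tissues, compared with 51.2% of all named genes. A further 9 were below it in retina alone, 10 in cortex alone and 44 in both. For these 44, signal above background was not shown in either tissue. For a gene dim in 1 tissue, the fitted difference is no measured size, and a bound is given as the bright tissue's mean against the dim level. Each bound rests on this choice of level and takes no account of the error of the mean. Of the 11 called genes of this kind, the bound was 2-fold or more in 3, Zfp654, Zfp78 and Zfp9.

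**Figure D1:**
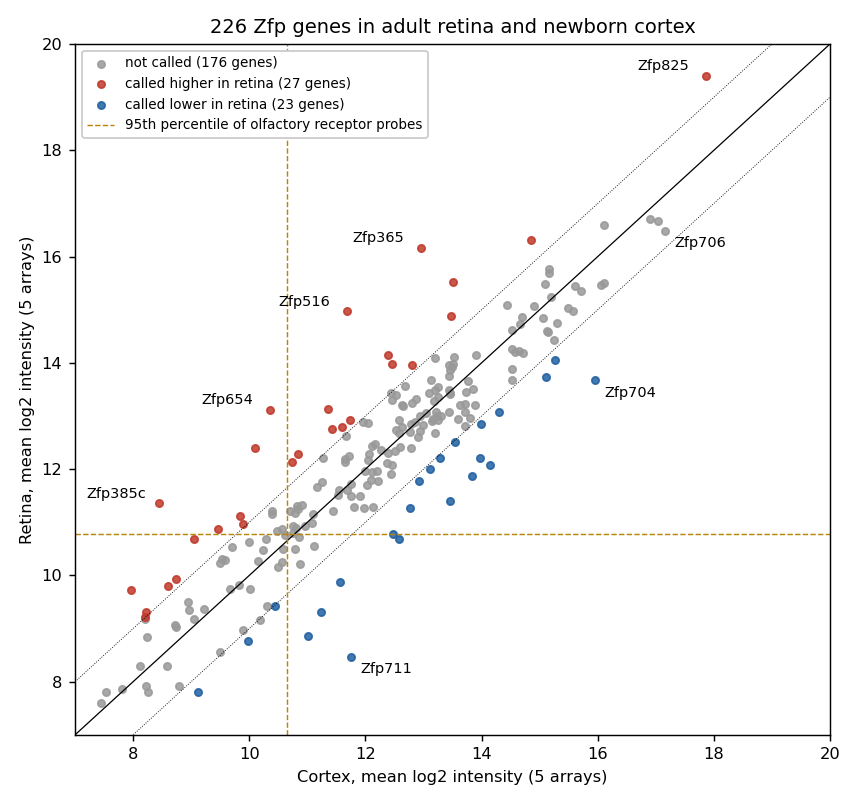
Mean log2 intensity of the 226 Zfp genes in cortex (x axis) and retina (y axis), 5 arrays each. The solid line marks equality, the dotted lines a 2-fold difference and the dashed lines the dim level, 10.65 for cortex and 10.77 for retina; most genes lie between the dotted lines, and 27 red and 23 blue genes were called.

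Of the 226 genes, 27 were higher in retina and 23 lower (limma, Benjamini-Hochberg adjusted p under 0.05 and a difference of at least 2-fold), 22.1% in all. The same call was made for 29% of all named genes and for 25.4% of all probes, so the share of Zfp genes called was not above the background. Among genes above the dim level in both tissues, 18.4% of Zfp genes and 29% of all named genes were called. Neither contrast was tested. Over all 226 genes the shares by direction were 11.9% higher and 10.2% lower, against 14.2% and 14.7% among all named genes. The median difference was 0.05 log2 units, beside 0.00 over all named genes. Most Zfp genes differed, as did most named genes, and for most Zfp genes the difference was small. The 5 arrays of one tissue did not overlap the 5 of the other in 130 genes (57.5%, against 50.3% of all named genes; 64 with retina above and 66 with retina below, against 25.1% and 25.2% of all named genes and 19.2% and 21.2% of all probes), and 150 genes had an adjusted p under 0.05, (66.4%, against 57.8% of all named genes), of which 100 stayed under 2-fold, 48 toward retina and 52 toward cortex.

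The differences stayed within a narrow band. The largest was 3.29 log2 units toward retina and the lowest -3.29 (Zfp711, dim in retina), whereas over all named genes they ran from -8.18 to 11.57. Only 11 Zfp genes (4.87%) differed by 4-fold or more, 6 higher and 5 lower, beside 10.8% of all named genes, and 0 of 226 differed by 16-fold, beside 2.20%. Among genes above the dim level in both tissues, 3.68% of the Zfp genes and 8.45% of all named genes differed by 4-fold or more. The median size of a difference was 0.48 log2 units for Zfp genes and 0.56 for all named genes. These shares are descriptions of the list, and no test was made of the contrast.

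**Figure D2:**
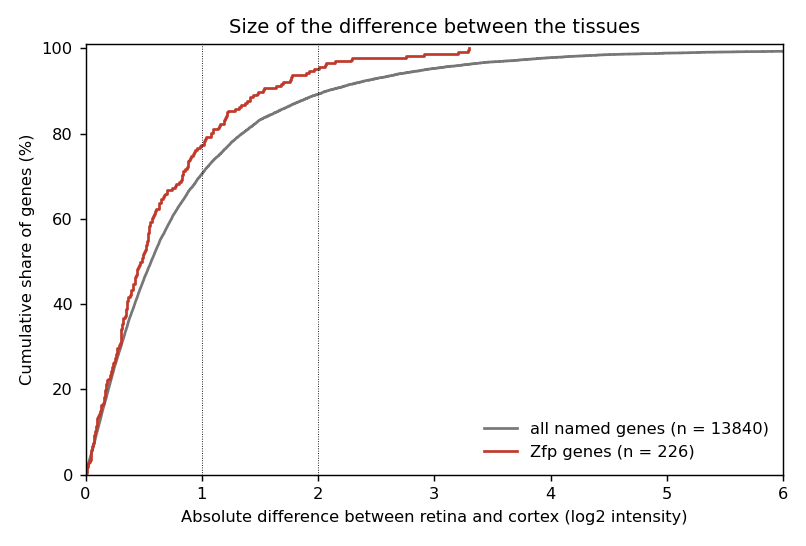
Cumulative share of genes (y axis, %) by absolute difference between retina and cortex (x axis, log2 intensity) for 226 Zfp genes in red and 13840 named genes in grey, with dotted lines at 2-fold and 4-fold. The red curve ends at 3.29, while the grey curve runs past the edge of the plot.

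**Figure D3:**
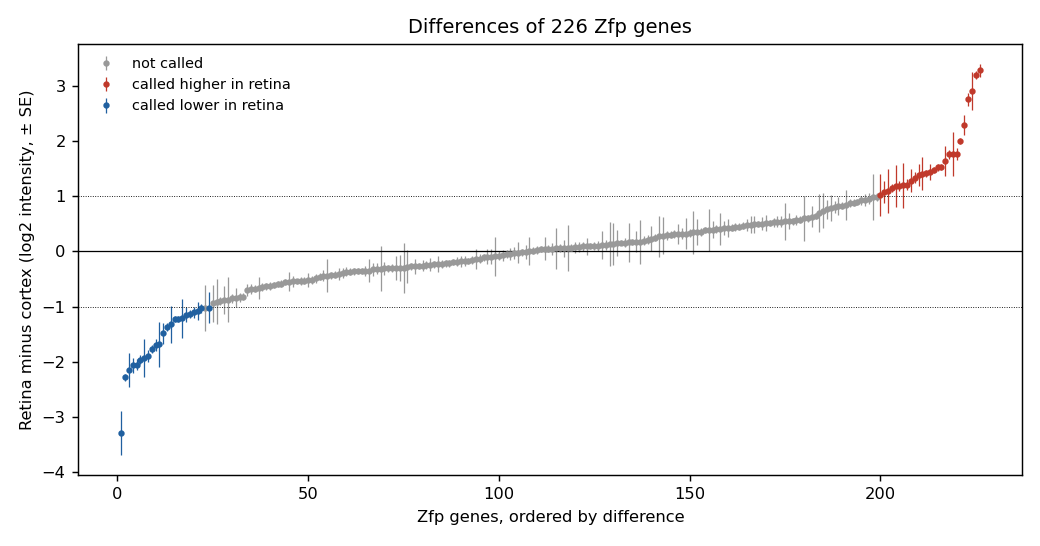
Retina minus cortex difference (y axis, log2 intensity, bars are SE) of each of the 226 Zfp genes in order of size. The dotted lines mark 2-fold; 27 genes were called higher and 23 lower, and 176 were not called.

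The balance of higher and lower genes rests on the scaling. Without normalization the median over all probes shifted to -0.41, and the count became 13 higher and 41 lower. Centring each array on its median instead gave 35 higher and 18 lower. Without normalization 14 of the 27 higher calls were lost, those of Zfp106, Zfp109, Zfp296, Zfp367, Zfp418, Zfp444, Zfp446, Zfp467, Zfp503, Zfp58, Zfp809, Zfp825, Zfp879 and Zfp93, and 0 of the 23 lower calls. With median centring 5 lower calls were lost, those of Zfp157, Zfp423, Zfp53, Zfp946 and Zfp975, and 0 higher calls. The differences below are relative to a common distribution of signals.

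Promoter sequences are shown for 4 of the genes with large differences, so that a reader can see the regions from which genes moving in opposite directions are transcribed. They are the 2 genes called higher and the 2 called lower with the largest differences among those above the dim level in both tissues and with a single RefSeq promoter entry. Genes on a chromosome kept out of this choice were not eligible, whatever their entries. Zfp516 and Zfp704 are named only. Each window runs from 250 bases before to 50 after the annotated start, 5′ to 3′ on the gene's strand, from RefSeq on GRCm38.p6. Zfp365 lies at chr10:67912613-67912912 and Zfp536 at chr7:37769703-37770002, both on the minus strand, and both were higher in retina. Zfp60 lies at chr7:27731159-27731458 on the plus strand and Zfp811 at chr17:32809882-32810181 on the minus strand, and both were lower. Capitals mark 4 motifs, each searched on both strands. The GC box was searched as GGGCGG and the CCAAT box by the letters of its name. The TATA box was searched as TATAAA. The core site of the photoreceptor factor Crx was searched as TAATCC. None of the 4 is part of another, and a window with a match counts once for that motif.
Zfp365: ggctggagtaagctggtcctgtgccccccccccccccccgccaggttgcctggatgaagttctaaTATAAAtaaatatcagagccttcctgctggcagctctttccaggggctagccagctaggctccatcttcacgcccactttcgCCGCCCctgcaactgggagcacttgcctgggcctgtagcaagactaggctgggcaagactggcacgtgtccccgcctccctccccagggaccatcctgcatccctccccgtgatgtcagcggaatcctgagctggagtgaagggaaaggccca
Zfp536: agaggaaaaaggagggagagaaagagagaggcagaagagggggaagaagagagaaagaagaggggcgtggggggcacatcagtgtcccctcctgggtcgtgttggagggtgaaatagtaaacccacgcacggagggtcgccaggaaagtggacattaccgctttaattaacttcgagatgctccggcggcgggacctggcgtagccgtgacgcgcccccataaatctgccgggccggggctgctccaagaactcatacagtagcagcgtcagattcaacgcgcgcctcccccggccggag
Zfp60: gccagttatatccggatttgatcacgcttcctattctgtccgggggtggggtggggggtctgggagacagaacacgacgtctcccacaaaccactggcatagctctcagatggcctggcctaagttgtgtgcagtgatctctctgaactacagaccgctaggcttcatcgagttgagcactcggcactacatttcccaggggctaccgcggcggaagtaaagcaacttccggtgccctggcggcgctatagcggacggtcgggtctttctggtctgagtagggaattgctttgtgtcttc
Zfp811: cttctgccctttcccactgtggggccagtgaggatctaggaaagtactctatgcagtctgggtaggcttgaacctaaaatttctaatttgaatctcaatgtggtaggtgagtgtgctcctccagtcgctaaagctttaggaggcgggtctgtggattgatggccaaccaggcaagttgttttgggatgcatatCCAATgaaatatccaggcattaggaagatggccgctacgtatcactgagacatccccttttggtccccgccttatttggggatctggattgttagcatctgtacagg
The Zfp365 window held a TATA box and a reverse-strand GC box, that of Zfp811 a CCAAT box, and those of Zfp536 and Zfp60 held none of the 4 motifs. The windows had 8, 22, 17 and 5 CpG dinucleotides for Zfp365, Zfp536, Zfp60 and Zfp811.

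Promoter entries were found for 187 of the 226 genes, in 235 windows. The RefSeq windows set beside them came from 27025 genes and were not limited to protein-coding ones, which all 226 members are. A gene with several entries counts several times. A Zfp window held a median of 15 CpG dinucleotides, compared with 7 over all 32851 RefSeq windows of the same length, and a median GC content of 55.7% compared with 52.7%. The GC box was in 44.7% of Zfp windows and 35.7% of all windows, the CCAAT box in 44.3% and 37.4%, the TATA box in 7.23% and 13.6%, and the Crx core in 8.09% and 7.06%. By direction, the Crx core was in 1 of 34 windows of genes higher in retina, 1 of 22 of genes lower and 17 of 179 of genes not called. The GC box was in 15 of 34, 7 of 22 and 83 of 179. A match is a description of the letters in the window only.

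Zfp516 had the largest difference toward retina. It encodes a transcription factor known for activating brown fat genes. Its log2 intensity on retina arrays 1 to 5 was 14.67, 14.87, 15.40, 14.91 and 15.01, and on the cortex arrays 11.53, 11.85, 11.41, 11.80 and 11.83. All retina arrays were above all cortex arrays, and the difference was 3.29 (SE 0.12, 9.78-fold, limma with Benjamini-Hochberg adjusted p = 2.67e-13). Zfp365, which encodes a binding partner of the schizophrenia-linked protein DISC1, was close behind. Its values were 16.07, 16.09, 16.23, 16.17 and 16.27 in retina and 13.23, 12.82, 12.91, 12.93 and 12.93 in cortex. The groups were far apart, with a difference of 3.20 (SE 0.070, 9.19-fold, limma adjusted p = 4.53e-16).

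Both measured relatives of Zfp385a, which encodes an RNA-binding protein with matrin-type fingers, were higher in retina. Zfp385b was at 15.36, 15.49, 15.65, 15.58 and 15.51 in retina and at 13.34, 13.54, 13.53, 13.60 and 13.57 in cortex, a difference of 2.00 (SE 0.062, limma adjusted p = 3.79e-14). Zfp385c was dim in cortex. It was at 11.16, 11.40, 11.53, 11.27 and 11.41 in retina and at 8.20, 8.23, 8.08, 9.94 and 7.77 in cortex, where array 4 stood above the others, and its difference of 2.91 (SE 0.35, limma adjusted p = 1.54e-06) was measured against signal not shown to lie above background. Against the dim level it was at least 1.64-fold higher. The paralogue Zfp385a itself was not analysed here.

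The other genes with large differences toward retina were Zfp654, Zfp78, Zfp536 and Zfp472. For Zfp654 the retina mean was 13.12 ± 0.09 and the cortex mean 10.36 ± 0.20 (SD, n = 5), which differ by 2.76 (SE 0.11, limma adjusted p = 1.37e-12). Zfp78 was at 12.39 ± 0.13 and 10.10 ± 0.41, a difference of 2.29 (SE 0.18, limma adjusted p = 6.22e-09). In both, the cortex mean was below the dim level, against which they were at least 5.56-fold and at least 3.35-fold higher. Zfp472 was above it in both tissues, at 14.14 ± 0.13 and 12.38 ± 0.12, a difference of 1.76 (SE 0.077, limma adjusted p = 3.47e-12).

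Zfp711 was higher in cortex, and its retina signal was dim. Its human counterpart is an X-linked intellectual disability gene whose product binds promoters with the demethylase PHF8. Its values were 8.04, 8.13, 7.16, 8.93 and 10.05 on the retina arrays and 11.84, 11.45, 12.02, 11.72 and 11.76 on the cortex arrays. All retina arrays were below the dim level and spread from 7.16 to 10.05, and the fitted difference was -3.29 (SE 0.40, limma adjusted p = 2.07e-06). Against the dim level the cortex mean of 11.76 was at least 1.98-fold higher, so the size of the difference is not known beyond that. Zfp704 gave the largest difference toward cortex among genes above the dim level in both tissues. It was at 13.55, 13.93, 13.55, 13.60 and 13.72 in retina and at 15.93, 16.06, 15.94, 15.86 and 15.98 in cortex. The arrays of each tissue lay close together, and the difference was -2.28 (SE 0.069, 4.87-fold, limma adjusted p = 2.47e-14).

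Next toward cortex were Zfp46, Zfp60, Zfp811, Zfp40, Zfp39 and Zfp9. For Zfp811 the retina mean was 12.09 ± 0.25 and the cortex mean 14.14 ± 0.08 (SD, n = 5), with a difference of -2.06 (SE 0.10, limma adjusted p = 1.56e-11). Zfp40 was at 11.87 ± 0.18 and 13.83 ± 0.07, a difference of -1.96 (SE 0.085, limma adjusted p = 3.15e-12). The retina means of Zfp46 (8.86 ± 0.72), Zfp39 (9.30 ± 0.91) and Zfp9 (10.68 ± 0.18) were below the dim level, with fitted differences of -2.14, -1.93 and -1.89. Against the dim level their cortex means were at least 1.17-fold, 1.37-fold and 3.47-fold higher. The 2 probes of Zfp60 disagreed in size. The probe that stood for it was at 11.39 ± 0.33 and 13.46 ± 0.12, a difference of -2.07 (SE 0.13, limma adjusted p = 4.89e-10), and the other at 12.08 ± 0.22 and 12.38 ± 0.13, a difference of -0.29 (SE 0.11) that was not called.

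**Figure D4:**
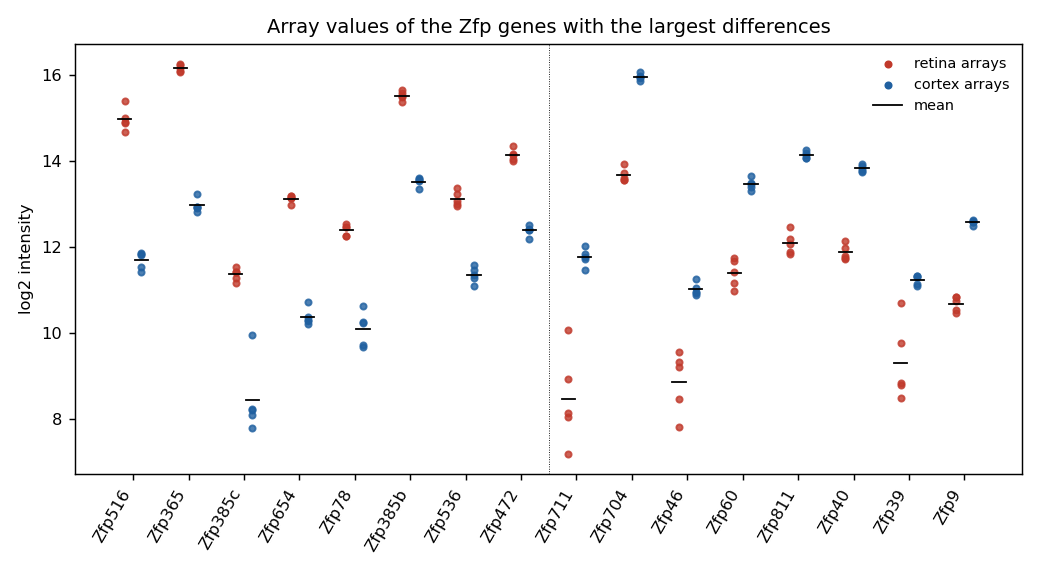
log2 intensity (y axis) on each retina array (red) and cortex array (blue) for the 8 called Zfp genes with the largest differences toward retina, left of the dotted line, and the 8 toward cortex, right of it, among genes above the dim level in at least 1 tissue and with no overlap (Zfp384, at 1.77 but dim in both tissues, is left out); bars are means of 5 arrays. In all 16 genes the red and blue points do not overlap, and Zfp711, Zfp39 and Zfp46 on the retina arrays and Zfp385c on the cortex arrays spread widely.

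The 4 CCCH genes of messenger RNA decay showed small differences, and limma called 0 of them, beside 29% of all named genes. Of the 4 genes, 3 had an unadjusted p under 0.05 and an adjusted p under 0.05. Zfp36l1, which restrains proliferation and differentiation genes through AU-rich decay, was at 15.04, 14.88, 15.12, 14.94 and 14.90 in retina and 15.56, 15.53, 15.60, 15.65 and 15.50 in cortex. It was lower on every retina array, by 0.59 (SE 0.054). Zfp36, the tristetraprolin gene that ends cytokine messenger RNAs, had a difference of 0.77 (SE 0.18), with a cortex mean below the dim level, and Zfp36l2 one of 0.51 (SE 0.15). Zfp36l3, known from the rodent placenta, was dim in both tissues and overlapped (0.18, 95% interval -0.67 to 1.02).

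Of their partners in messenger RNA decay, 17 of 26 listed genes were measured, 5 were higher in retina (29.4%, beside 14.2% of all named genes) and 0 lower (beside 14.7%) with limma, with 14 at an unadjusted p under 0.05 and a median difference of 0.36. The 5 were Btg2 (3.26, SE 0.057), Tob1 (2.07, SE 0.062) and Tob2 (1.58, SE 0.14), antiproliferative proteins that bind the CCR4-NOT deadenylase, Pan2 (1.15, SE 0.059), a deadenylase subunit, and Cnot6l (1.14, SE 0.12), a catalytic subunit of CCR4-NOT. The other 7 measured genes of that complex were not called, with the deadenylase genes Cnot7 and Cnot8 at -0.37 and -0.40, Cnot2, Cnot3, Cnot4 and Cnot11 between 0.14 and 0.86, and Cnot9 at -0.999 (SE 0.085), just short of the 2-fold minimum. On leaving out retina array 4 or 5 or cortex array 1, 2 or 3, 1 decay partner was called lower.

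Of 8 measured genes of RNA handling and the ribosome, 1 was higher, 1 lower and 6 not called. Over all named genes the shares were 14.2% higher and 14.7% lower. Zfp106, whose RNA-binding product is needed to keep motor neurons alive, was higher, at 13.75, 14.14, 13.96, 13.99 and 13.95 in retina and 12.80, 12.73, 12.89, 12.80 and 12.80 in cortex, a difference of 1.16 (SE 0.069, limma adjusted p = 2.38e-10). Its second probe gave 0.88 (SE 0.076), under the 2-fold minimum, and without normalization the first gave 0.77 and was not called. Zfp326, part of a complex that couples splicing to polymerase elongation, was lower, at 13.99, 13.97, 14.03, 14.15 and 14.08 in retina and 15.16, 15.23, 15.25, 15.39 and 15.28 in cortex, a difference of -1.22 (SE 0.054, limma adjusted p = 3.8e-12). Zfp622, a maturation factor of the large ribosomal subunit, and Zfp598, a sensor of collided ribosomes, were at -0.19 (SE 0.057) and 0.48 (SE 0.15). Zfp346, Zfp593, Zfp318 and Zfp638 lay between -0.63 and 0.39.

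Of 18 listed genes of neural development 8 were measured, of which 4 were higher in retina, 2 lower and 2 not called, beside 14.2% higher and 14.7% lower among all named genes. Besides Zfp365, the higher ones were Zfp536, Zfp219 and Zfp503. Zfp536, a repressor of retinoic acid-driven neuronal differentiation, was at 12.96, 12.99, 13.08, 13.22 and 13.37 in retina and 11.28, 11.57, 11.47, 11.35 and 11.09 in cortex, a difference of 1.77 (SE 0.11, limma adjusted p = 2.87e-10). Zfp219, a partner of Sox9 in cartilage, was at 16.32 ± 0.09 and 14.84 ± 0.06 (SD, n = 5), a difference of 1.47 (SE 0.051, limma adjusted p = 1.77e-13). Zfp503, known from developing striatal neurons, was at 12.80 ± 0.15 and 11.59 ± 0.14, a difference of 1.21 (SE 0.099, limma adjusted p = 1.37e-08), which without normalization was 0.79 and not called.

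Toward cortex, beside Zfp711, stood Zfp423, a factor of cerebellar and olfactory development and of fat cell precursors. It was at 13.03, 12.93, 12.87, 12.64 and 12.81 in retina and 14.04, 14.05, 14.07, 13.87 and 13.96 in cortex, a difference of -1.14 (SE 0.073, limma adjusted p = 5.88e-10), which with median centring was -0.98 and not called. Zfp462, a chromatin factor of neurodevelopment, and Zfp609, which acts with the cohesin loader in migrating cortical neurons, overlapped between tissues, at -0.05 (95% interval -0.29 to 0.19) and -0.08 (-0.24 to 0.09). Of 4 listed counterparts of human eye disease genes 2 were measured, both above the dim level in both tissues. Neither was called, beside 29% called among all named genes. Zfp513, whose human counterpart is linked to retinitis pigmentosa, was at 14.72 to 14.98 over the retina arrays and 14.66 to 14.73 over the cortex arrays, a difference of 0.17 (SE 0.052). Zfp644, linked to high myopia, was at 13.19 to 13.68 and 13.73 to 14.02, a difference of -0.35 (SE 0.088).

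Of the 5 measured genes that silence imprinted genes or retroelements or mark pluripotent cells, 3 were lower in retina, 1 was higher and 1 not called. Over all named genes 14.7% were lower and 14.2% higher. Zfp932, a KRAB repressor of endogenous retroviruses, was at 13.02, 13.19, 13.17, 13.01 and 12.98 in retina and 14.22, 14.26, 14.29, 14.38 and 14.35 in cortex, a difference of -1.23 (SE 0.060, limma adjusted p = 1.58e-11). Zfp809, a KRAB protein that silences murine leukaemia virus at its primer binding site, went the other way, at 12.08, 12.44, 12.06, 12.53 and 12.33 in retina and 11.09, 10.67, 10.81, 10.56 and 11.09 in cortex, a difference of 1.44 (SE 0.14, limma adjusted p = 1.19e-07), which without normalization was 0.99 and not called. The other 2 lower genes, Zfp708 (-1.21, SE 0.36) and Zfp819 (-1.32, SE 0.33), were below the dim level in both tissues. Zfp708 overlapped between tissues, and without retina array 1, at 7.84 the lowest, its difference was -0.998 and not called. Zfp42, the pluripotency marker Rex1, was at 8.29 ± 0.41 and 8.58 ± 1.06, with no signal shown above background.

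Most measured genes of the silencing machinery that KRAB proteins recruit differed, but by less than 2-fold. Of 25 listed names 15 were measured, and 12 had an adjusted p under 0.05 (limma), 6 toward retina and 6 toward cortex, as did 57.8% of all named genes; 12 had an unadjusted p under 0.05. With the 2-fold minimum 0 were higher and 2 lower, beside 14.2% and 14.7% of all named genes, and the median difference was -0.09. The 2 were the deacetylase gene Hdac2, with a retina mean of 16.87 ± 0.07 and a cortex mean of 18.17 ± 0.05 (SD, n = 5; -1.29, SE 0.049, limma adjusted p = 5.26e-13), and Uhrf1, a factor of maintenance methylation that was dim in both tissues (-1.37, SE 0.30). Trim28, the corepressor itself, was at 16.12 ± 0.16 and 16.61 ± 0.07 (-0.49, SE 0.068). The heterochromatin protein genes Cbx5 and Cbx3 were at -0.94 and -0.69, and the deacetylase gene Hdac1 and the remodeller gene Chd4 were at 0.95 and 0.73. All of these stayed under 2-fold.

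Of the 12 measured genes of general transcription and chromatin, Zfp516 and Zfp467 were higher, 0 were lower with limma and 10 were not called. The shares over all named genes were 14.2% higher and 14.7% lower. Of the 12 genes, 11 had an unadjusted p under 0.05. Zfp467, which favours fat over bone cell fate, was at 11.94 to 12.29 over the retina arrays and 10.40 to 11.62 over the cortex arrays, a difference of 1.39 (SE 0.20, limma adjusted p = 1.2e-05), which without normalization was 0.92 and not called. Several had differences that were small and tightly measured. Zfp281, a zinc finger regulator of pluripotency, was at 0.50 (SE 0.052), Zfp687 at 0.65 (SE 0.054), Zfp148 at -0.58 (SE 0.060), and Zfp207, which loads the spindle checkpoint protein Bub3 on kinetochores, at -0.35 (SE 0.052). Zfp64, Zfp532, Zfp410 and Zfp608 were on the cortex side, from -0.70 to -0.16, and Zfp451 and Zfp830 on the retina side, at 0.35 and 0.55.

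**Figure D5:**
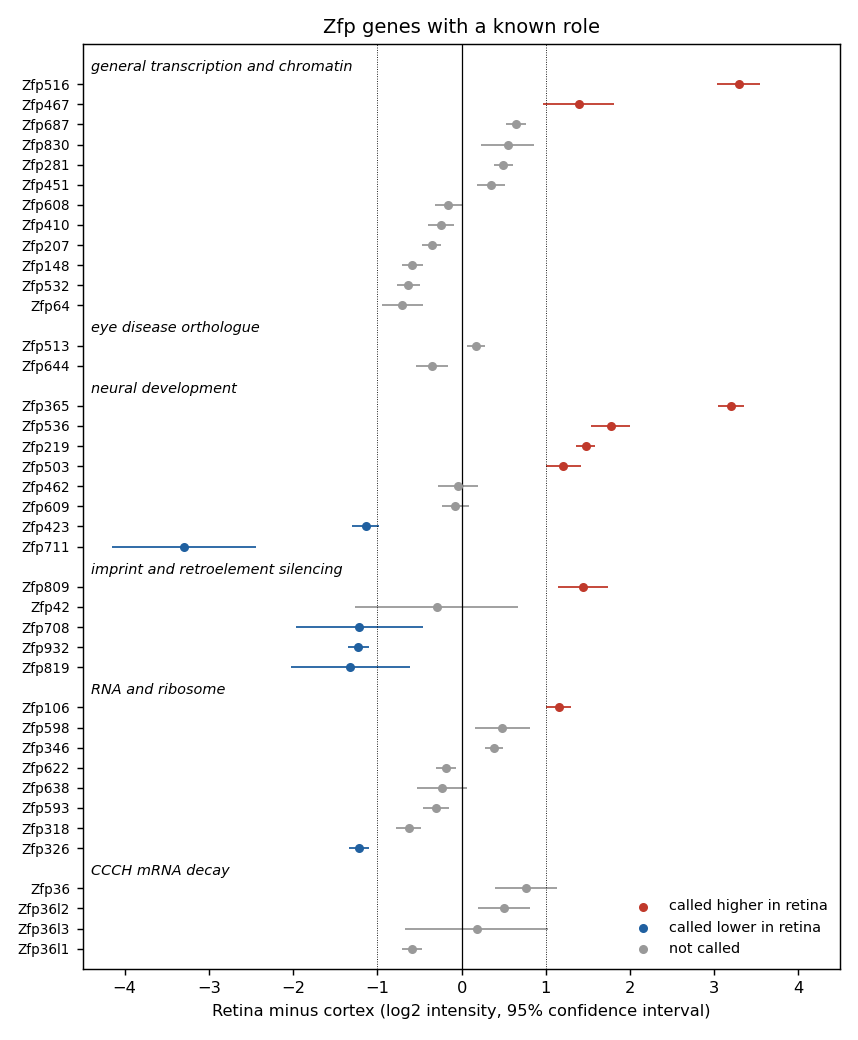
Retina minus cortex difference (x axis, log2 intensity, bars are 95% confidence intervals) of the 39 measured Zfp genes in 6 role lists, with dotted lines at 2-fold. Red genes were called higher in retina, blue ones lower; neural development has 4 red and 2 blue genes, and the CCCH list has none.

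The remaining 187 genes are in no role list. Among them 19 (10.2%) were higher, 17 (9.09%) lower and 151 not called, with a median difference of 0.05. Over all named genes 14.2% were higher and 14.7% lower. Zfp825 had a bright probe in both tissues, at 19.44, 19.50, 19.36, 19.32 and 19.38 in retina and 17.92, 17.88, 17.88, 17.86 and 17.78 in cortex, a difference of 1.54 (SE 0.054, limma adjusted p = 1.92e-13). Without normalization this was 0.97 and not called. Zfp706 was also bright in both, at 16.48 ± 0.19 and 17.16 ± 0.12, a difference of -0.68 (SE 0.082). The smallest differences above the dim level were those of Zfp772 (-0.01, 95% interval -0.29 to 0.27), Zfp354a (0.01, -0.13 to 0.16) and Zfp523 (-0.02, -0.15 to 0.12). Of the 50 called genes, 9 were below the dim level in both tissues, 6 higher and 3 lower, and 5 of the 50 had arrays that overlapped between tissues. Just inside the 2-fold minimum were Zfp109 at 1.02 and Zfp53 at -1.02, both below the dim level in both tissues, and just outside it were Zfp869 at 0.99 and Zfp449 at -0.94.

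Of the 10 genes with 2 probes, Zfp354c was called lower by both, at -1.37 (SE 0.068) and -1.73 (SE 0.11). In Zfp106 and Zfp60 only the probe that stood for the gene was called. That of Zfp60 was the brighter probe in cortex but the dimmer one in retina. In Zfp692 the probes had opposite signs, 0.60 (SE 0.060) and -0.18 (SE 0.070, limma adjusted p = 0.0443), neither of which reached 2-fold, and the same was true of Zfp658, at 0.44 and, from dim signal, -0.77. In the other 5 genes, Zfp128, Zfp148, Zfp27, Zfp655 and Zfp709, the signs were the same and neither probe was called.

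In RefSeq gene order 79 of the 226 genes had another as the next protein-coding neighbour, in 27 runs of 2 to 6 genes. Of these 79 genes 15 were called, and of the 147 others 35, beside 22.1% of all Zfp genes and 29% of all named genes. Among the 52 neighbouring pairs, both genes were called in 2, and in both pairs the directions were opposite, whereas 16 pairs had 1 called gene and 34 had none. One such pair was Zfp354c and Zfp879. Zfp354c was at 13.55, 13.78, 13.85, 13.69 and 13.77 in retina and 15.01, 15.06, 14.98, 15.23 and 15.24 in cortex, so lower in retina, whereas Zfp879 was at 10.69, 11.34, 10.69, 10.81 and 10.87 against 9.47 ± 0.72 (SD, n = 5), a difference of 1.41 (SE 0.31, limma adjusted p = 0.000892) with cortex below the dim level, against which it was at least 1.18-fold higher. The other was Zfp809, higher, beside Zfp599, lower (-1.68, SE 0.41, limma adjusted p = 0.00213), whose retina arrays spread from 8.10 to 10.78 around a dim mean, against which level its cortex mean was at least 1.73-fold higher. Without normalization the higher calls of Zfp879 and Zfp809 were lost, so neither pair was called in both genes there. The gene models of this pair overlap, and which strand the probes read was not given.

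Of the 3 runs of 6 genes, that of Zfp84, Zfp30, Zfp790, Zfp940, Zfp420 and Zfp27 held no called gene and lay between -0.36 and 0.54. In the run of Zfp111, Zfp109, Zfp108, Zfp93, Zfp61 and Zfp94, Zfp109 and Zfp93 were higher from signal dim in both tissues, 5 of 6 differences were above 0, and Zfp94 was at -0.09. In the run of Zfp677, Zfp54, Zfp51, Zfp53, Zfp52 and Zfp948, the last was lower in retina, at 12.21 ± 0.12 and 13.98 ± 0.09 (SD, n = 5), a difference of -1.77 (SE 0.073, limma adjusted p = 1.64e-12), and Zfp53 was lower from dim signal, while the other 4 lay between -0.02 and 0.42. In the run of Zfp871, Zfp811, Zfp799 and Zfp870, Zfp811 alone was called, and its neighbours lay between -0.27 and 0.19. In the run of Zfp119a, Zfp959 and Zfp119b, Zfp119b was higher, at 13.97 ± 0.11 and 12.45 ± 0.09 (1.52, SE 0.071), beside 0.39 and 0.53 for the others. The genes of 2 runs had nearly equal differences. Zfp768, Zfp747 and Zfp764 were at 0.52, 0.45 and 0.47, not called, and Zfp688 and Zfp689 were at 0.88 each (SE 0.071 and 0.063), not called, both with all retina arrays above all cortex arrays. Similar copies may share a probe's signal, which could not be checked without probe sequences.

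Other families named by prefix are set beside these counts, with 14.2% of all named genes higher and 14.7% lower. Of 31 Zbtb genes, which pair C2H2 fingers with a BTB domain, 6 were higher and 4 lower, with a median of 0.31. Of 14 Klf genes, which encode Sp1-like factors, 6 were lower and 0 higher with limma (8 had an unadjusted p under 0.05), with a median of -0.74 and a lowest value of -5.28. The 31 Zbtb genes ranged from -2.25 to 2.60 and the 226 Zfp genes from -3.29 to 3.29, but a range widens with the number of genes. The median size of a difference was 0.66 log2 units for Zbtb genes and 0.48 for Zfp genes. Of 18 Zdhhc genes, palmitoyltransferases whose cysteine-rich domain also binds zinc, 2 were higher and 1 lower. The other 9 families had 2 to 6 measured genes each. Sp had 2 higher and 2 lower of 5, with a lowest value of -5.39, Zic 1 and 2 of 4, with a lowest value of -4.31, Gli 0 and 2 of 2, and Zmynd 1 and 2 of 4. Zkscan had 2 higher of 6, and Egr, Ikzf, Zscan and Zfhx 1 higher each, with 0 lower in these 5 families. At 4-fold or more stood 5 Klf, 2 Zbtb, 2 Zic, 2 Gli and 1 Sp genes. Zdhhc (from -1.36 to 1.25), Zmynd, Zkscan, Egr, Ikzf, Zscan and Zfhx had 0 such genes, so small differences were not particular to Zfp genes.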

How the data were processed

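Gene expression was measured on 10 Applied Biosystems arrays. The intensity values are those deposited by the authors, on a linear scale, all above 0. How they were scanned, corrected and scaled is not given in the sources used here. The authors' intensity values were put on the log2 scale and quantile-normalized, which forces all arrays to 1 distribution. Retina and cortex were compared by limma 3.58.1 under R 4.3.3 (lmFit and 2-sided moderated tests from eBayes, whose prior variance followed intensity), with Benjamini-Hochberg adjustment over 33012 probes. A call needed an adjusted p under 0.05 together with a difference of at least 2-fold. Groups and replicate numbers come from the sample titles.

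Genes were named from the platform annotation, using probes with a single symbol. All 226 members matched the RefSeq table (GRCm38.p6) by Entrez ID, and 0 symbols changed. The rule for named genes took all measured members of the role lists, the 8 called members with the largest difference each way that did not overlap between tissues and whose brighter tissue passed the olfactory receptor level, the 3 members with the highest signal in each tissue, the 3 smallest differences above that level, and any gene whose probes were called in opposite directions (there was none). Other genes are named as examples chosen after their values were seen. The members and lists were chosen with earlier results of these data known. Bounds against the olfactory receptor level were added after the values were seen. The fit was tested on simulated data. Alternatives covered the scaling, an offset of 64, dim probes, the variance trend, the fold minimum, the replicate block, the choice of probe and each array left out. Detection flags, protein sequences and probe sequences were not used here. For arrays, their number limits the precision.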

Additional observations from a re-analysis of the deposited data

Results flagged for a closer look

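Among the 56 named Zfp genes, 112 groups of 5 arrays were examined for 1 array far from the other 4, and 12 held one, where chance gives about 1 in 20. In dim signal, Zfp385c was at 9.94 on cortex array 4 and 7.77 to 8.23 on the others, Zfp42 at 10.45 on cortex array 5 and 7.94 to 8.45 on the others, Zfp708 at 9.50 on cortex array 1 and 10.04 to 10.17 on the others, and Zfp819 at 10.08 on cortex array 4 and 8.74 to 9.12 on the others. Zfp467 was at 11.62 on cortex array 4 and 10.40 to 10.73 on the others. The other 7 lay closer to their groups. On cortex array 1, Zfp365 was at 13.23 (12.82 to 12.93 on the others), Zfp523 at 13.54 (13.42 to 13.43) and Zfp385b at 13.34 (13.53 to 13.60). On cortex array 5, Zfp318 was at 13.56 (13.73 to 13.79) and Zfp410 at 13.00 (13.17 to 13.22). On retina array 3, Zfp654 was at 12.97 (13.14 to 13.18) and Zfp207 at 16.55 (16.69 to 16.74).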

How the results depend on the processing

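Without normalization, 13 Zfp genes were higher and 41 lower, the median difference was -0.40, 5 KRAB partners were lower, and 3 decay partners were higher and 1 lower. All 13 were among the 27 and all 23 lower genes stayed lower. Median centring gave a median of 0.13, with 1 KRAB partner higher. Without dim probes the median was 0.014 over 201 genes. With no fold minimum, 75 Zfp genes were higher and 75 lower, as were 6 and 6 KRAB partners and 9 and 4 decay partners. With each array left out in turn, 24 to 27 were higher and 20 to 25 lower, the median ran from 0.013 to 0.058, and 0 to 1 decay partners were lower. The replicate block gave 26 higher and 24 lower, and the higher call of Zfp367 was lost. It changed no call of the 56 genes taken by the rule for named genes. The deviations of arrays sharing a number were only weakly correlated (-0.020 to 0.029), and the numbers were not taken as pairs. Still, 3 of 5 retina arrays correlated best with the cortex array of their own number, and whether that exceeds chance was not tested. No called gene among these 56 changed sign in any setting run. In all 17 alternatives that kept the fold minimum, 12 of the 27 higher and 15 of the 23 lower calls held. Zfp367 and Zfp109, both dim, held in 7 and 8 of the 17. Including olfactory receptor probes with several symbols, an alternative chosen after seeing the data, left 151 genes above the dim level in both tissues in place of 163. The dim level was then 10.97 for retina and 11.05 for cortex, so the bounds given above shrink. The retina mean of Zfp879, at 10.88, lay below that cortex level, which leaves this gene without a bound.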
